A study of Homo sapiens with 2 samples.

Results

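The genes of cholesterol and fatty acid synthesis were followed in MDA-MB-231 cells, a long-established human breast cancer line of the triple-negative type, grown in 3D lrECM (a gel of laminin-rich basement membrane proteins). The group holds 31 genes, taken by gene name, of 19629 named genes on the chip, namely 18 enzymes of sterol synthesis, 6 regulators and carriers, and 7 enzymes of fatty acid synthesis and desaturation. An array of untreated cells (0 Gy) was set against an array of cells that received ionizing radiation (IR) at 2 Gy per day for 4 days. The labels name no genetic change in either culture, and the time from the final dose to RNA isolation is not stated in the sources used here. RNA labelled with Cy5 was hybridised to a 1-colour oligonucleotide chip (3D-Gene), so that each spot gives the brightness of 1 probe in 1 sample. Since each condition was read on 1 array, nothing could be tested across arrays or checked in replicates, and every ratio below sets these 2 RNA samples against each other, irradiated over untreated. Where 2 values are given for a gene, the untreated array comes first. A lower value from a whole culture cannot tell less RNA per cell from fewer cells that express the gene.

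Cells build cholesterol from acetyl-CoA through mevalonate, isoprenoid diphosphates, squalene and lanosterol. Transcription of most of these enzymes, and of the fatty acid enzymes, is driven by the SREBP factors, which SREBF1 and SREBF2 encode. When sterols are low, the escort protein SCAP carries the SREBP precursors from the endoplasmic reticulum to the Golgi, where proteases release the active factor, and when sterols are high, the INSIG proteins hold SCAP back. Fatty acid synthesis starts from the same acetyl-CoA pool and gives the saturated and unsaturated acyl chains of membranes and lipid stores, and many breast cancer lines express it strongly.

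The sequences before the transcription starts of 4 of the genes are shown because the values below turn on them or because of a motif they hold. Each run is the 250 bases upstream of an annotated start in RefSeq (GRCh38.p14), written 5′ to 3′ on the strand of the gene, with matches to the sterol regulatory element (SRE) letters TCACNCCAC and to CCAAT, or its reverse complement ATTGG, in capitals. The windows are chr22:41832855-41833104 (plus strand) for SREBF2, chr5:43313413-43313662 (minus strand) for HMGCS1, chr2:118088221-118088470 (plus strand) for INSIG2 and chr10:100346983-100347232 (plus strand) for SCD.
SREBF2: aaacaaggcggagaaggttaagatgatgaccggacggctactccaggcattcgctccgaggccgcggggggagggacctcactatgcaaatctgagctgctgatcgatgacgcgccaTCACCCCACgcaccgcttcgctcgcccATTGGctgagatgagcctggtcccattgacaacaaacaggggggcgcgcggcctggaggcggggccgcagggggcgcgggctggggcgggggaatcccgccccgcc
HMGCS1: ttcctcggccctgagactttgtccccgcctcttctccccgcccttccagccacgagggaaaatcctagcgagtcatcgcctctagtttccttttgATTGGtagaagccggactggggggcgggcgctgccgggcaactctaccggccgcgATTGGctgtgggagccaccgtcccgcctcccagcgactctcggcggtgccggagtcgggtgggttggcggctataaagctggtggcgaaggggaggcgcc
INSIG2: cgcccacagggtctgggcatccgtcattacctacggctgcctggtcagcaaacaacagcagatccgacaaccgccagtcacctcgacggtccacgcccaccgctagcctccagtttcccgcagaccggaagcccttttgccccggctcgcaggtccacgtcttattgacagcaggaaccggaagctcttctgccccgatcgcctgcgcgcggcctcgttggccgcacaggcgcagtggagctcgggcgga
SCD: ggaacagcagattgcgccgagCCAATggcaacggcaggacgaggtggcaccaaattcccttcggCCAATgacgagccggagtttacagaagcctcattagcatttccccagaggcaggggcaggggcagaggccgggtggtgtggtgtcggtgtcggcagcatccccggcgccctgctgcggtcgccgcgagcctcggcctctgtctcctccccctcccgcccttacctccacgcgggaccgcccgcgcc

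The SRE letters are a pattern that SREBP factors bind, CCAAT is bound by NF-Y, and GGGCGG, the GC box, by Sp1 and its relatives. Both strands of the 250 bases were searched in 37 promoter entries that RefSeq holds for 27 of the 31 genes, and in all 35116 promoter entries of the same length. The SRE letters stood in 1 of the 37 entries (2.7%), that of SREBF2, as TCACCCCAC on chromosome 22 from 41832972 to 41832980, 133 bases before the start, and in 0.883% of all promoters. CCAAT stood in 23 of the 37 entries (62.2%), from 19 genes, against 32.0% of all promoters. GGGCGG was found in 33 entries (89.2%), from 26 genes, against 42.6%, and CACGTG, the E-box, in 4 (10.8%), from INSIG1, SC5DL and SCAP, against 6.34%. Of the promoters printed above, that of INSIG2 held neither SRE nor CCAAT letters, while those of HMGCS1 and SCD each held 2 CCAAT matches. Another annotated start of HMGCS1, whose window is not printed, had 0 CCAAT matches. SRE and CCAAT letters do not overlap in the SREBF2 window. Entries of the same gene can overlap and are not independent. A match of letters is not a measured binding site, and a window without a match was not shown to lack one.

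All 35 probes of the 31 genes lay above the blank spots on both arrays. Their spot intensities, in scanner units before any scaling, ran from 29.3 (SCAP) to 8768 (SC4MOL) in untreated cells and from 24.6 to 7544 in irradiated cells, with medians of 584 and 522. The upper limit of the blank spots, set at their 95th percentile, was 14.2 and 16, and the median over all gene probes was 57.9 and 51.9, so the irradiated array was the dimmer overall. Of the 35 probes, 31 were brighter than the median gene probe on both arrays. Markers of the line were mixed. Of the mesenchymal markers, VIM (28208 and 26732), AXL (1374 and 1512), CD44 (481 and 388) and CAV1 were above the blank spots and SPARC (26.1 and 21.8) not far above them. Of the receptors that a triple-negative line lacks, ESR1 was within the blank spots (13.4 and 13.3), PGR at their upper limit (at most 15 over 2 probes) and ERBB2 above it (70.1 and 70.9). PTPRC, the pan-leukocyte marker, was also within the blank spots on both arrays (12.5 and 15.6), and CDH5 and COL1A1, of endothelium and fibroblasts, were at most 21.2, while ACTA2, a smooth muscle and myofibroblast marker, gave 179 and 132 on 1 probe and 30.4 and 30.3 on another. The epithelial markers, known to be low in this line, were all above the blank spots, with CDH1 at 179 and 155, EPCAM at 198 and 203 and at 163 and 133 on its 2 probes, GATA3 at 88.7 and 97.3, KRT19 at 2248 and 1778, and ESRP1, nearest to them, at 20.1 and 16.5.

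**Figure D1:**
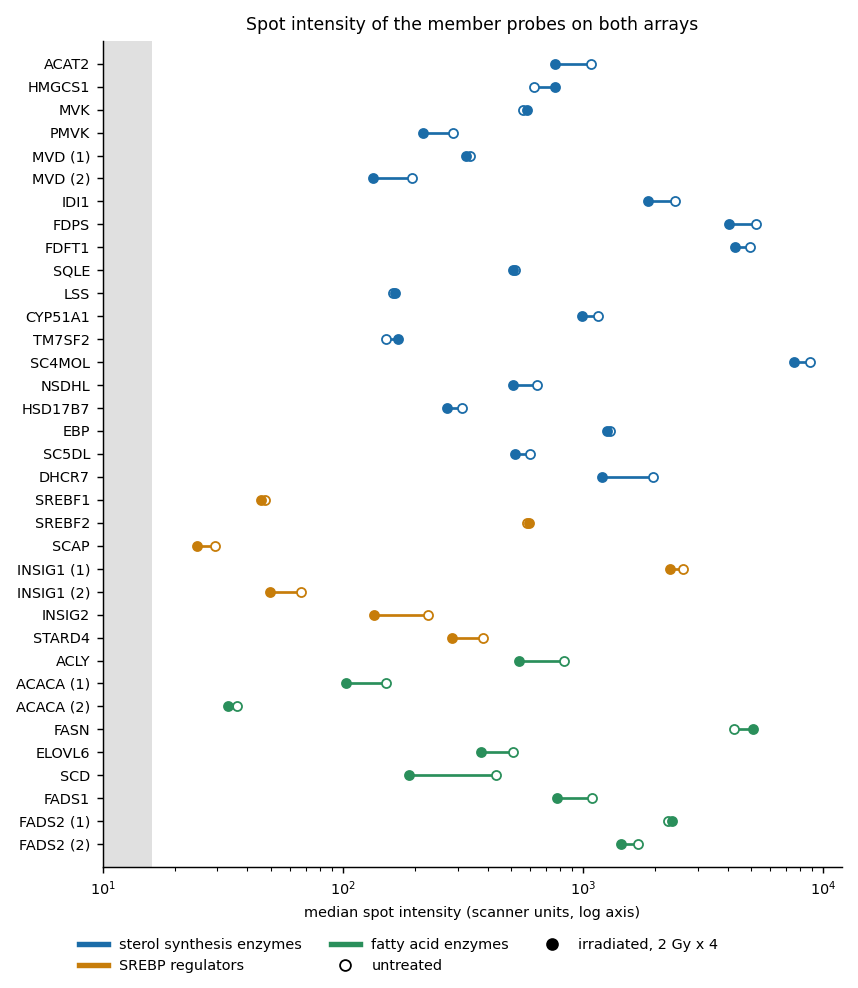
Median spot intensity in scanner units (log axis) of each of the 35 probes, with open points for the untreated and filled points for the irradiated array, coloured by role, and a number in brackets where a gene has 2 probes. The grey band ends at 16, the higher of the upper limits of the blank spots on the arrays, and every probe lies to its right. The widest gap between the arrays is that of SCD (433 and 188.5).

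Intensities were then background-corrected with the normexp method and an offset of 50, a constant that pulls the ratios of dim probes towards 1, and quantile-normalized, which gives both arrays the same distribution of values. Intensities below are unscaled and ratios come from the normalized signals, so a ratio is not the quotient of the intensities beside it. A gene was counted as past the size rule at 1.5-fold in either direction. By this rule 1 of the 31 genes, SCD, was lower on the irradiated array and none was higher, whereas 187 (1.04%) of 18028 named genes detected on both arrays were lower and 54 (0.3%) were higher. Among the 9014 brighter of those genes the shares were 1.94% lower and 0.566% higher. Without regard to size, 11 of the 31 genes were higher and 20 lower, and 35.5% were thus higher, against 55.4% of all detected genes. The median log2 ratio of the 31 genes was -0.07, with a median absolute deviation (MAD) of 0.18, and that of all detected genes was 0.01, with a MAD of 0.08.

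**Figure D2:**
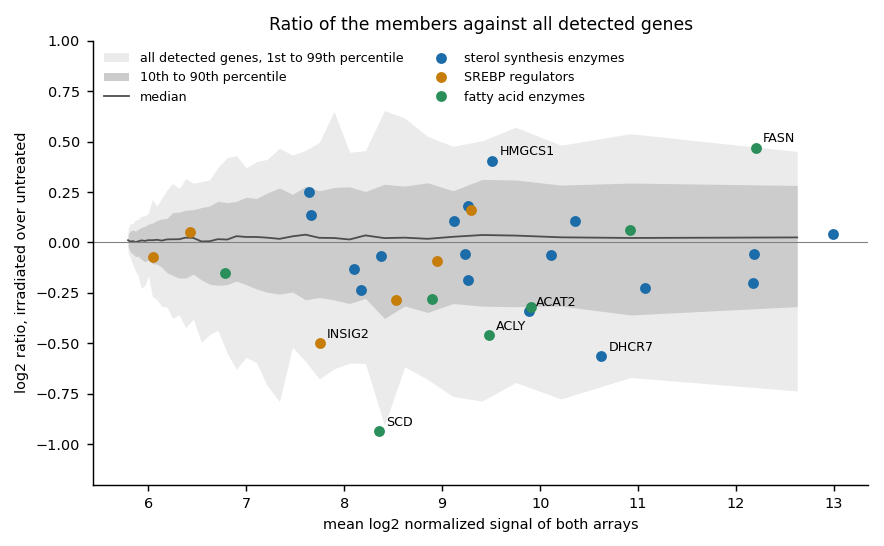
Log2 ratio of each of the 31 genes, irradiated over untreated, against its mean log2 normalized signal on both arrays. Grey bands hold the middle of all detected genes of like signal (10th to 90th and 1st to 99th percentile), the line is their median, and SCD (-0.94), DHCR7 (-0.56) and INSIG2 (-0.50) lie lowest, FASN (0.47) and HMGCS1 (0.41) highest.

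The early enzymes, from acetyl-CoA to the isoprenoids, lay on both sides of an even ratio. HMGCS1, the HMG-CoA synthase that commits acetoacetyl-CoA to the pathway, had an intensity of 622 in untreated and 762 in irradiated cells, the largest relative gain among the 18 sterol enzymes, and its normalized ratio was 1.32 (634 and 840 normalized). ACAT2, the thiolase of the step before it, was lower, with intensities of 1077 and 761 and a ratio of 0.789. The kinases that follow also lay on either side of 1. MVK, mevalonate kinase, gave intensities of 563 and 586 and a normalized ratio of 1.13. PMVK, phosphomevalonate kinase, had 287 and 216 and a ratio of 0.849. MVD, the decarboxylase that makes isopentenyl diphosphate, was measured by 2 probes on opposite sides of 1, at 1.05 (338 and 327) and 0.799 (194 and 134), and the gene mean was 0.914. IDI1, the isomerase of isopentenyl diphosphate, had intensities of 2401.5 and 1866, and its ratio was 0.857. FDPS, which joins isoprenoid units into farnesyl diphosphate, gave intensities of 5234.5 and 4033.5 and a normalized ratio of 0.871. None of these 7 genes reached 1.5-fold.

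The enzymes of squalene and lanosterol were close to even between the arrays. FDFT1, squalene synthase, gave intensities of 4951 and 4296 and a normalized ratio of 0.960. SQLE, squalene epoxidase, a rate-limiting enzyme of the pathway, had 523 and 512 and a ratio of 1.08. LSS, lanosterol synthase, had 162 and 165 and a ratio of 1.10. The log2 ratios of these 3 genes were, in size, smaller than the MAD of 0.18 among the 31 genes. Those of SQLE (0.11) and LSS (0.14) were larger than the MAD of 0.08 over all detected genes.

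The enzymes that turn lanosterol into cholesterol held the lowest ratio of the sterol genes. DHCR7, a reductase of the last steps, had intensities of 1959 in untreated and 1195 in irradiated cells, and a ratio of 0.676, the value just outside the size rule. At the other end, TM7SF2, the reductase of an earlier step, gave intensities of 151.5 and 169.6 and a normalized ratio of 1.19. CYP51A1, the lanosterol demethylase, was near even at 1149 and 991 (ratio 0.959), and SC4MOL (current symbol MSMO1), the methyl sterol oxidase, at 8768 and 7544 (ratio 1.03). NSDHL, a sterol dehydrogenase that acts with it, had 645 and 511 and a ratio of 0.878. HSD17B7, the ketosteroid reductase of the same demethylation steps, had 312 and 272 and a ratio of 0.956. EBP, the sterol isomerase, had 1289.8 and 1258 and a ratio of 1.08, and SC5DL (current symbol SC5D), the desaturase after it, had 601.5 and 522 and a ratio of 0.960. Over all 18 sterol enzymes, 7 were higher and 11 lower, 0 passed 1.5-fold, and the median log2 ratio was -0.06 with a MAD of 0.17.

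Neither SREBP gene was lower on the irradiated array after normalization. SREBF2, whose product mainly drives sterol genes and whose own promoter holds the SRE letters shown above, gave intensities of 584 and 597 and a normalized ratio of 1.12. SREBF1, whose product favours fatty acid genes, was dim at 47.3 and 45.5, with a ratio of 1.04. SCAP was read not far above the blank spots, at 29.3 and 24.6, where the offset weighs most, with a ratio of 0.951. With offset 0 the ratio of SCAP was 0.814. The deposited values, which carry no offset, were only 8.2 and 6.1 for it, a ratio of 0.745.

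The INSIG genes, whose products retain SCAP in the endoplasmic reticulum, were both below 1. INSIG2, the form whose expression depends less on SREBP, had intensities of 227 in untreated and 134 in irradiated cells, and its ratio of 0.707 was the lowest among the 6 regulators. INSIG1, itself an SREBP target, was read by a bright probe at 2614 and 2298 (ratio 0.986) and by a dim probe at 67.2 and 49.8 (ratio 0.892), and the gene mean was 0.938. STARD4, a soluble protein that carries cholesterol between membranes, had 384 and 285 and a ratio of 0.820. Of the 6 regulators, 2 were higher and 4 lower, and the median log2 ratio was -0.08.

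The widest differences lay among the fatty acid enzymes, and in both directions. SCD, the desaturase that makes oleate and palmitoleate, had an intensity of 433 in untreated and 188.5 in irradiated cells. After normalization its signals were 453 and 236.5, a ratio of 0.522, and the deposited values were 202 and 97.3, a ratio of 0.482. SCD was the only gene of the 31 past the size rule, and DHCR7 (0.676) and INSIG2 (0.707) came next on the lower side. FASN, fatty acid synthase, lay on the other side of 1 from SCD, with intensities of 4264 and 5073 and a ratio of 1.39, the highest of all 31 genes. FASN and HMGCS1 (1.32) were the nearest to the rule on the higher side. The local background beside the FASN spot was brighter than the spot itself on both arrays (4684 and 5541).

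The other fatty acid enzymes lay between these. ACLY, which makes cytosolic acetyl-CoA from citrate, gave intensities of 835 and 539.9 and a normalized ratio of 0.727. ACACA, acetyl-CoA carboxylase, was read by a probe at 151 and 103 (ratio 0.812) and by a dim one at 36.2 and 33.2 (ratio 0.998), and the gene mean was 0.9005. ELOVL6, the elongase of palmitate, had 513 and 377 and a ratio of 0.823. The desaturases of polyunsaturated chains, FADS1 and FADS2, differed. FADS1 had 1089 and 782 and a ratio of 0.802. FADS2 was read by 2 probes on opposite sides of 1, at 1.16 (2256 and 2354) and 0.945 (1685 and 1431), with a gene mean of 1.05. In all, 2 of the 7 fatty acid enzymes were higher, 5 were lower, 1 of them past 1.5-fold, and the median log2 ratio was -0.28 with a MAD of 0.18.

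Ratios also differed with the place of a probe on the chip, given as its column in the scanner files. Over all genes the ratios were lower towards the far columns of the chip. In columns 1 to 26, 27 to 52, 53 to 78 and from 79 on, the median log2 ratio over all detected probes was 0.07, 0.03, 0.01 and -0.10. The share of all probes at least 1.5-fold lower was 0.0541% in columns 1 to 26 and 4.09% from column 79 on. The 35 probes of the lipid genes were spread unevenly, with 3, 11, 11 and 10 in these stretches. All 10 from column 79 on were lower (median ratio 0.817), whereas of the other 25 probes 13 were lower and 12 higher (median ratio 0.998). The median log2 ratio over all probes from column 79 on was below 0 too (-0.10). The share of them that were lower at any size was not counted. SCD (column 88), INSIG2 (80), ACLY (103) and ACAT2 (89) lay in the last stretch, while DHCR7 (19) and HMGCS1 (3) lay in the first. Control spots of 1 sequence, printed 24 times over the chip, showed the same order. The mean log2 ratio of Positive Control 1, before scaling between arrays, was -0.04 in the first stretch and -0.57 in the last, and that of Positive Control 2 was -0.13 and -0.43 (6 spots in each stretch). Copies of 1 control had intensity ratios from 0.596 to 1.02 and from 0.638 to 1.0046, and the SD of their log2 ratios was 0.25 and 0.18, all of it among spots of 1 sequence on the same pair of arrays. The part of chip position in each gene's value was not tested.

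**Figure D3:**
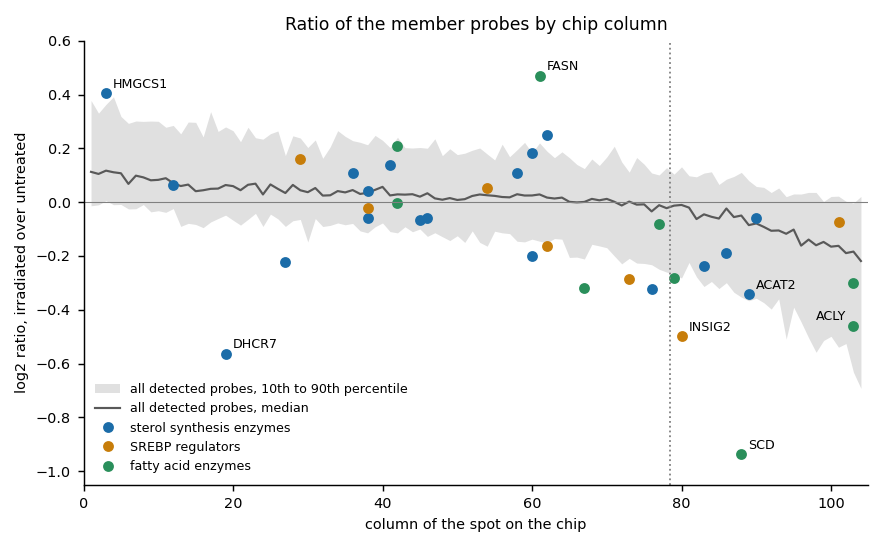
Log2 ratio of each of the 35 probes, irradiated over untreated, against the column of its spot, with the median (line) and the 10th to 90th percentile (grey) of all detected probes in each column. The dotted line marks the start of column 79, from which all 10 probes are below 0, and SCD (-0.94) and DHCR7 (-0.56) lie below the grey band of their columns while ACLY (-0.46) lies within it.

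Set against the probes of their own column, 10 of the 35 probes lay below the 10th percentile, 3 above the 90th and 22 between. The lower ones were SCD, at -0.94 where the 10th percentile of its column was -0.35, DHCR7 (-0.56 against -0.05), INSIG2 (-0.50 against -0.28), FADS1, ELOVL6, STARD4, IDI1, FDPS and 1 probe each of MVD and INSIG1. Those above were HMGCS1 (0.41, where the 90th percentile was 0.36), FASN (0.47 against 0.22) and TM7SF2 (0.25 against 0.19). ACLY, at -0.46, was not among them, since the 10th percentile of its column was -0.63. Columns hold dim probes too, whose ratios the offset pulls towards 1, and most of the lipid probes were bright.

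With the local trend removed, that is, after subtraction of the median log2 ratio of neighbouring detected probes (11 rows and 8 columns to each side, with the printed blocks of the chip taken to lie above each other, which the sources used here do not state), SCD was at 0.583, DHCR7 at 0.661, INSIG2 at 0.764, ACAT2 at 0.884, ACLY at 0.855, HMGCS1 at 1.18 and FASN at 1.33. SCD and DHCR7 were then past 1.5-fold lower and no gene was past it higher, where 0.455% of all detected genes were lower and 0.205% higher by the same rule. The authors' deposited values put SCD (0.482) and INSIG2 (0.650) past 1.5-fold lower and no gene higher, where 6.41% of all detected genes were lower and 3.96% higher. Under the correction of the deposited values for the same trend, ACLY and ACAT2 turned to 1.09 each, and the lower genes past the rule were SCD (0.636) and DHCR7 (0.656), with none higher, where 3.62% of all detected genes were lower and 2.98% higher. SCD was thus past the rule in each of these 4 versions, and DHCR7 in those corrected for position. Of the 10 probes from column 79 on, 9 were lower after the correction and 7 in the corrected deposited values. Of the other 25 probes, 15 and 14 were lower.

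**Figure D4:**
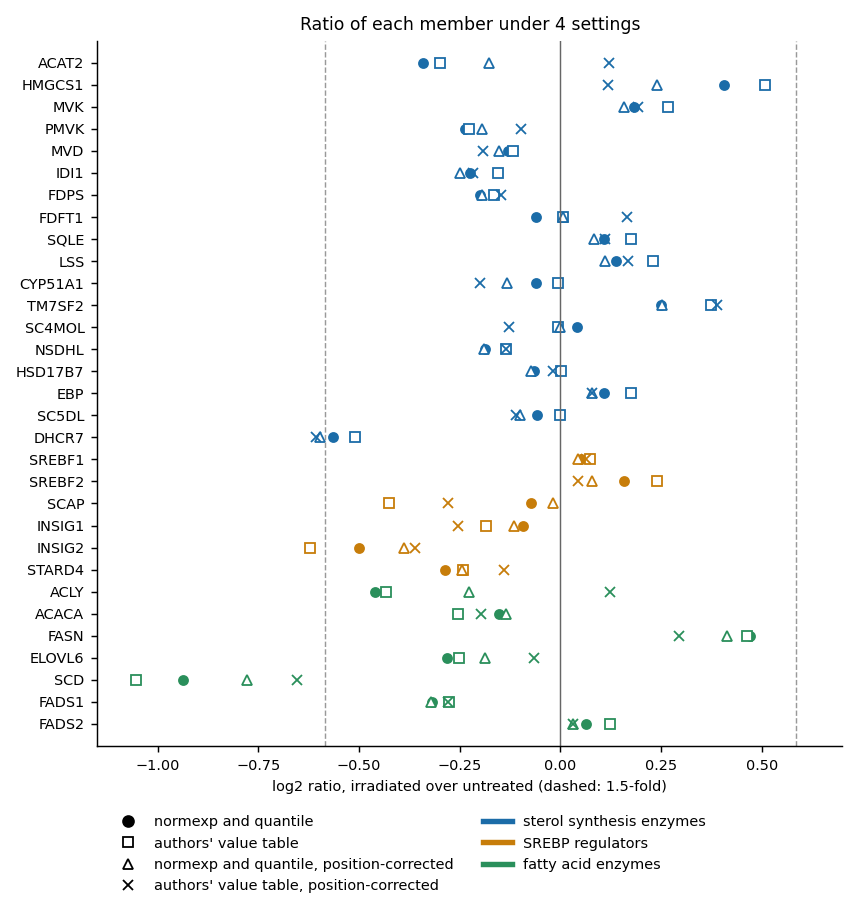
Log2 ratio of each of the 31 genes, irradiated over untreated, in 4 versions: normalized intensities (filled circles), the authors' deposited values (squares), and each of these after removal of the local trend over the chip (triangles and crosses). SCD stands to the left of the dashed 1.5-fold line in all 4, DHCR7 in 2 and INSIG2 in 1. ACLY, ACAT2, FDFT1, SC4MOL and, narrowly, HSD17B7 have values on both sides of 0.

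Over 13 settings of background correction, scaling, filter and position, 7 genes were higher wherever they had a value, 11 were lower, and 13 changed direction at least once. The settings reuse the same 2 arrays and are not independent. How many of all detected genes kept their direction was not counted, so these counts have no share to be set against. The 7 were FASN (1.23 to 1.39), MVK, SQLE, TM7SF2, EBP, SREBF2 and FADS2, of which MVK, SQLE, TM7SF2 and EBP are sterol enzymes. FADS2 is the mean of 2 probes on opposite sides of 1, and with a further probe that the platform annotation alone gives to it, its mean was 0.956. EBP likewise has such a probe, and its mean was then 1.02, but 0.962 in the deposited values. The 11 were SCD (0.463 to 0.636), DHCR7 (0.586 to 0.703), INSIG2 (0.636 to 0.901), IDI1, NSDHL, SCAP, INSIG1, STARD4, ELOVL6, FADS1 and ACACA. INSIG1 is the mean of 2 probes, and in the deposited values its bright probe was at 1.017 and its dim probe at 0.761. HMGCS1 was higher in 12 of the 13, up to 1.42. It was at 0.816 once the local background, brighter beside its spot on the irradiated array (243 and 497), was subtracted. All probes of these genes lay above the blank spots on both arrays, so a stricter filter or none could only repeat the reported values. Use of the brightest probe could change only the 4 genes with 2 probes.

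A further list of 32 genes of the same pathways, of which 31 were detected on both arrays, held 0 genes past 1.5-fold, 14 higher and 17 lower, with a median log2 ratio of -0.03. MLXIPL, which encodes the carbohydrate-responsive factor ChREBP, was the highest, with intensities of 106 and 137 and a ratio of 1.31, and 1.52 in the deposited values. ACSL3, an acyl-CoA synthetase of lipid droplets, was the lowest, with 699.6 and 457 and a ratio of 0.736 in column 86. Its relative ACSL4, in the same column, had a ratio of 0.793, and GGPS1, which makes geranylgeranyl diphosphate, had 0.795 in column 100. SCARB1, a lipoprotein receptor, had 1.15, and SLC25A1, the mitochondrial citrate carrier, 1.16. The lowest of these genes thus also lay beyond column 79. With the local trend removed, ACSL3 was at 0.760, ACSL4 at 0.820 and GGPS1 at 0.962.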

How the data were processed

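RNA of 1 untreated and 1 irradiated culture was measured on 1 array each. The authors deposited, for each array, the median spot intensity and the local background of 27456 spots on a linear scale, without subtraction or scaling, and a value table of processed intensities made by steps that are not stated in the sources used here. Values in it above 10 equal, within 0.41% (untreated) and 0.487% (irradiated), the deposited intensity less a trimmed mean of blank spots, scaled to a median of 25.

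From 24456 gene probes (control, blank and 6 poor spots were left out), intensities were corrected by normexp with offset 50 and quantile-normalized in limma 3.58.1 (R 4.3.3), and log2 ratios of the detected probes of a gene were averaged. Other steps used Python 3.11.15, numpy 2.4.6, pandas 2.3.3 and matplotlib 3.10.9. In the mean of a gene a probe was used if it exceeded the 95th percentile of blank spots on at least 1 array. Counts, shares and medians over all detected genes or probes cover those above it on both arrays (18028 genes, 22069 probes). Ratios of dim probes are drawn towards 1 by the offset. Rows of the chip were numbered with its blocks stacked, which is an assumption. Names in the scanner files named 22580 probes, updated through the platform annotation and the RefSeq gene table of GRCh38.p14, and 1876 stayed unnamed. No gene coordinates are given beyond the promoters, since the files name no build. The normalization and the size rule, applied to single probes, were tested on simulated data. The simulated pair held no trend over the chip, and its noise was set below the spread of the control spots. It therefore cannot show how the rule behaves under the trend seen here. Other steps, the position correction among them, were not tested.

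The genes, their lists and the motifs were chosen with earlier results of these data known. All 31 genes are named with every probe, with the 2 nearest the size rule on either side, and in the further list those named were picked after their values were seen. Some genes are not reported here. Alternatives were scaling to the median or the 75th percentile, loess normalization, offset 0, no or local background subtraction, the deposited values, a position correction of either, the brightest probe, other filters, a 2-fold rule and, chosen after seeing the data, probes named by the platform annotation alone. The number of arrays limits the precision.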

Additional observations from a re-analysis of the deposited data

How the results depend on the processing

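With 1 array per condition, no array could be left out, and no paired analysis was possible because each group holds 1 sample. The count of genes at least 1.5-fold lower, 1 in the values reported, was 2 with median scaling, a loess curve, no background correction, offset 0, the authors' deposited values, the position correction and the deposited values with that correction, and it was 3 with local background subtraction and 0 by a 2-fold rule. Of all detected genes, 1.21% were at least 1.5-fold lower with median scaling, 1.29% with the loess curve, 2.45% without background correction, 4.64% with offset 0, 6.41% in the deposited values, 0.455% and 3.62% with the position corrections and 15.2% with local background subtraction, and 0.0943% were 2-fold lower. The count of genes at least 1.5-fold higher, 0 in the values reported, was 2 with local background subtraction, MVK at 1.90 and EBP at 1.63, where 16% of all 17290 genes with a value were that much higher. That subtraction turned the direction of 10 of 29 genes and gave no value for FASN and NSDHL. The local background was above the spot on both arrays for FASN and on the irradiated array for NSDHL. With the subtraction the sterol median was 0.03 in place of -0.06. The other settings turned the direction of 0 to 4 of 31 genes. The median log2 ratio of the fatty acid enzymes, -0.28, was -0.065 in the deposited values with the position correction. The medians of all 31 genes (-0.18 to -0.04) and of the regulators (-0.24 to -0.05) stayed below 0. The cause of these shifts was not tested.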

Other observations

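Some probes carry no gene name in the scanner files and were left out above, though the platform annotation gives them to genes of the group. Such a probe for FADS2, in column 98, had intensities of 45.8 in untreated and 26.3 in irradiated cells and a ratio of 0.8004, and 0.434 in the deposited values, below both named FADS2 probes (1.16 and 0.945). Averaged in, it took FADS2 from 1.05 to 0.956, and to 0.8015 in the deposited values, so that its direction turned. Such a probe for EBP, in column 29, had 34.1 and 29.2 and a ratio of 0.963, where the named EBP probe had 1.08, and the mean of both was 1.02, or 0.962 in the deposited values. This averaging was chosen after seeing the data. Both were dim next to the median gene probe of 57.9 and 51.9.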
